A study of Mus musculus with 6 samples.

Results

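The circadian clock genes described here are *Arntl*, *Npas2*, *Cry1*, *Nr1d1*, *Nr1d2*, *Dbp*, *Per1*, *Per2*, *Per3* and *Cry2*, chosen by name as the core oscillator and its best known output. They are 10 of the 18191 genes in the table, and all 10 passed the filter on low counts among the 13938 genes tested. The RNA came from whole aortas of male mice, with 3 libraries of wild type (WT) and 3 of *Npr1*+/- mice. *Npr1* encodes the receptor of atrial and brain natriuretic peptides, and the *Npr1*+/- mice carry a heterozygous knockout made by CRISPR-Cas9, for which no tissue restriction is stated. The age and strain of these mice, whether a library is 1 aorta or a pool, and the hour at which the aortas were collected are not given in the sources used here, so p-values measure the spread between these libraries only. Each genotype has libraries numbered 1 to 3, and the labels do not say that libraries of the same number are paired.

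The mammalian clock is a feedback loop of transcription. ARNTL (also called BMAL1) pairs with CLOCK or NPAS2 and switches on the *Per*, *Cry*, *Nr1d* and *Dbp* genes through E-boxes. PER and CRY proteins return to block the pair, and the NR1D receptors (REV-ERB) silence *Arntl*, *Npas2* and *Nfil3* through ROR response elements. The mouse aorta runs such a clock, and in mouse peripheral tissues *Arntl* and *Npas2* are high around the change from dark to light, *Nr1d1*, *Nr1d2*, *Dbp* and *Per3* later in the light, *Per1*, *Per2* and *Cry2* near the change to dark, and *Cry1* in the dark.

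The promoters below are shown because their short motifs are the letters through which the loop is read, and because they cover genes that were high and genes that were low in the same libraries. RefSeq windows of 250 bases before to 50 bases after the start of transcription on GRCm38.p6 were matched for 9 of the 10 clock genes, in 11 windows. They were also matched for *Ciart*, a repressor of the ARNTL and CLOCK pair, and for *Bhlhe41*, *Tef*, *Hlf*, *Nfil3* and *Clock*, which are not shown. *Per2* was not matched. Capitals mark the E-box CACGTG, the E′-box CACGTT, the D-box TTATGTAA or TTACGTAA, and the end of the ROR element, TAGGTCA or TGGGTCA, each searched on both strands. The E-box and the E′-box differ only in the last letter, so 1 site cannot be both. The windows lie at chr7:113207261-113207560 on the + strand for *Arntl*, chr10:85185005-85185304 on the - strand for *Cry1*, chr4:151044616-151044915 on the - strand for *Per3*, chr11:69098699-69098998 on the + strand for *Per1* and chr3:95882179-95882478 on the - strand for *Ciart*, and each is written 5′ to 3′ along its gene.
Arntl: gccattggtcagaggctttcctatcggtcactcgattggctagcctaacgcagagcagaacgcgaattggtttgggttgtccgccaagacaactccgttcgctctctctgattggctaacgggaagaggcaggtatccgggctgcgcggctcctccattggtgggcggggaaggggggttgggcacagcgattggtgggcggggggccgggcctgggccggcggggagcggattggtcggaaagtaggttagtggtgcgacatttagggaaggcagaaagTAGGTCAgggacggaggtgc
Cry1: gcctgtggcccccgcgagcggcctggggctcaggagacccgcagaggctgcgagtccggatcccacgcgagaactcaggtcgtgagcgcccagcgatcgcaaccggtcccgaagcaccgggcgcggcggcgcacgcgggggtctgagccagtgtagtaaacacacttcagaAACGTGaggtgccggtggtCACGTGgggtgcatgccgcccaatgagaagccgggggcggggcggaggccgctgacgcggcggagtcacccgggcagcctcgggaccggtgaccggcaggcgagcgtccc
Per3: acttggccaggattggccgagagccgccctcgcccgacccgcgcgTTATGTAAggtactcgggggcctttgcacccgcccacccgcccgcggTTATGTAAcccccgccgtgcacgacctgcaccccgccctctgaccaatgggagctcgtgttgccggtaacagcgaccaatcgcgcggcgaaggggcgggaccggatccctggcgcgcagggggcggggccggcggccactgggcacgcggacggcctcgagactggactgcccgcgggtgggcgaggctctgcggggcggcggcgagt
Per1: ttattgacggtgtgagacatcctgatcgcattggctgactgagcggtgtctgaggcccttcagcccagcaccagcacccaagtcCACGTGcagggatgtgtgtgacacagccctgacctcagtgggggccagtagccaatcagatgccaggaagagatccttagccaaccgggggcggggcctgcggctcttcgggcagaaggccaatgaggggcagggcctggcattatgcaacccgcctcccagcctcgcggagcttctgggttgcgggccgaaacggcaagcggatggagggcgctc
Ciart: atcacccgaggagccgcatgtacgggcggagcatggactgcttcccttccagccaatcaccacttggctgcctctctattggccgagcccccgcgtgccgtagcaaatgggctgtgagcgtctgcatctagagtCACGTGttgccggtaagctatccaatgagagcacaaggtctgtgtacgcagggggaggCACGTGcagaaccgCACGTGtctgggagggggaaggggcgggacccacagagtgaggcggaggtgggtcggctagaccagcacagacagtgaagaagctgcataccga

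The *Arntl* window shown held the end of a ROR element just after the start, and the *Per3* window held a pair of D-boxes, the element bound by DBP. *Cry1* held an E-box and an E′-box, *Per1* an E-box, and *Ciart* 3 E-boxes. An E′-box was also found in the windows of *Nr1d1* and *Cry2*, and none of these motifs in those of *Npas2*, *Nr1d2* and *Dbp*. The other *Arntl* window, at chr7:113207215-113207514, and the other *Per1* window, at chr11:69099902-69100201, also held none of them. Of the windows not shown, those of *Bhlhe41* and *Tef* each held an E-box and that of *Nfil3* the end of a ROR element. Those of *Hlf* and *Clock* held none of the motifs. This says only that the letters are not in these windows. Of the 32817 promoter windows of this length in the table, 7.15% held an E-box, 4.69% an E′-box, 1.05% a D-box and 6.46% the end of a ROR element. A match is a description of letters and not evidence of binding.

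The libraries held 13510970 to 16664343 estimated counts, so that 3 counts correspond to 0.185 to 0.219 CPM (counts scaled to a common library size). The targeted gene, *Npr1* (NCBI gene 18160, chr3:90450591-90465866), measured 112, 153 and 152 FPKM (fragments scaled by transcript length and library size) in WT 1, 2 and 3 and 70.4, 110 and 133 FPKM in *Npr1*+/- 1, 2 and 3. These ranges overlapped, with a log2 fold change of -0.41 and an adjusted p of 0.999 by the quasi-likelihood test of edgeR, and 559 exon bases of *Npr1* are shared with *Gm16048* on the opposite strand. Smooth muscle markers summed to 20040 CPM in WT 1 and 12260 CPM in *Npr1*+/- 1 against 32180 to 36630 CPM in the other 4 libraries. Both libraries numbered 1 stood apart on the first principal component, which held 59.3% of the variance. Brown fat markers summed to 2729 CPM in WT 1 and 2720 CPM in *Npr1*+/- 1 against 407 to 829 CPM in the other 4 libraries, white fat markers to 1668 and 3071 CPM against 352 to 856 CPM, and erythroid markers to 4451 and 3758 CPM against 366 to 794 CPM. Sympathetic neuron markers summed to 395 CPM in *Npr1*+/- 1 and to 5.12 to 11.9 CPM in the others. Endothelial markers summed to 430 to 773 CPM in WT, with 616 CPM in WT 1, and to 814 to 1211 CPM in *Npr1*+/-, with 1211 CPM in *Npr1*+/- 1. The groups did not overlap for 3 of these 5 markers, beside 7.48% of all genes tested. *Cdh5* and *Tek* overlapped, at 97.6 and 36.9 CPM in *Npr1*+/- 3 and 110 and 46.2 CPM in WT 3. In bulk RNA, fewer cells of a type and less RNA per cell cannot be told apart, and the part of these differences in the values below was not tested, except that the values without both libraries numbered 1 are given.

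On the FPKM scale, which allows for transcript length, *Nr1d1* was the most abundant clock gene, with a mean over the 6 libraries of 113 FPKM. It was followed by *Dbp* at 37.6, *Per1* at 26.6, *Nr1d2* at 23.5, *Per2* at 22.1, *Cry2* at 11.8, *Arntl* at 9.74, *Npas2* at 7.36, *Per3* at 5.57 and *Cry1* at 3.78 FPKM. The lowest *Nr1d1* value, 81.5 FPKM, was above the highest of any other clock gene, 76.2 FPKM for *Dbp*. All neighbours further down this order overlapped over the 6 libraries, so their order is not larger than the spread between libraries.

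The activators *Npas2* and *Arntl* did not overlap between the groups, with every *Npr1*+/- value below the WT values, and had the smallest unadjusted p-values of the 10 clock genes, though edgeR called neither. *Npas2* (NCBI gene 18143, chr1:39193731-39363236), a partner of ARNTL in the activating pair, measured 9.51, 10.6 and 10.2 FPKM in WT 1, 2 and 3. It measured 2.5, 6.04 and 5.30 FPKM in *Npr1*+/- 1, 2 and 3. The groups did not overlap, the WT libraries lay close together, and all 3 *Npr1*+/- libraries were lower. *Arntl* (NCBI gene 11865, chr7:113207465-113314126), the activator without which the loop stops, measured 15.8, 9.53 and 11.5 FPKM in WT and 5.74, 9.38 and 6.51 FPKM in *Npr1*+/-. Its groups did not overlap either, but *Npr1*+/- 2 lay just under WT 2.

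The mean of *Npas2* was 10.1 ± 0.540 FPKM in WT and 4.61 ± 1.87 FPKM in *Npr1*+/- (SD, n = 3 each). Its fitted level in *Npr1*+/- was 45.9% of WT, a log2 fold change of -1.12 (SE 0.30), with an unadjusted p of 0.00813 and an adjusted p of 0.999 by edgeR's quasi-likelihood test. Blocking on the replicate number, a pairing that neither the labels nor the data establish, changed this to -1.19 (SE 0.21). The unadjusted p was then 0.000561 and the adjusted p 0.116 by edgeR. DESeq2 gave an adjusted p of 0.367 without the block. DESeq2 with the block, a fit added after the data were seen, gave an adjusted p of 0.000472, and there *Npas2* was the only clock gene called. Without both libraries numbered 1, the log2 fold change of *Npas2* was -0.88, with an unadjusted p of 0.000284 and an adjusted p of 0.168 by edgeR.

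The mean of *Arntl* was 12.3 ± 3.19 FPKM in WT and 7.21 ± 1.92 FPKM in *Npr1*+/- (SD, n = 3 each). Its fitted level in *Npr1*+/- was 59.6% of WT, a log2 fold change of -0.75 (SE 0.24), with an unadjusted p of 0.0192 and an adjusted p of 0.999 by edgeR. The block gave an adjusted p of 0.265 by edgeR. Leaving out WT 1, *Npr1*+/- 1 or *Npr1*+/- 3 moved the unadjusted edgeR p of *Arntl* to 0.0602, 0.0555 and 0.0636, and leaving out both libraries numbered 1 brought the log2 fold change to -0.42 and p to 0.0703. Exact two-sided permutation tests of log2 CPM gave p = 0.1 for *Npas2* and for *Arntl*, the smallest that 3 libraries against 3 allow.

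**Figure D1:**
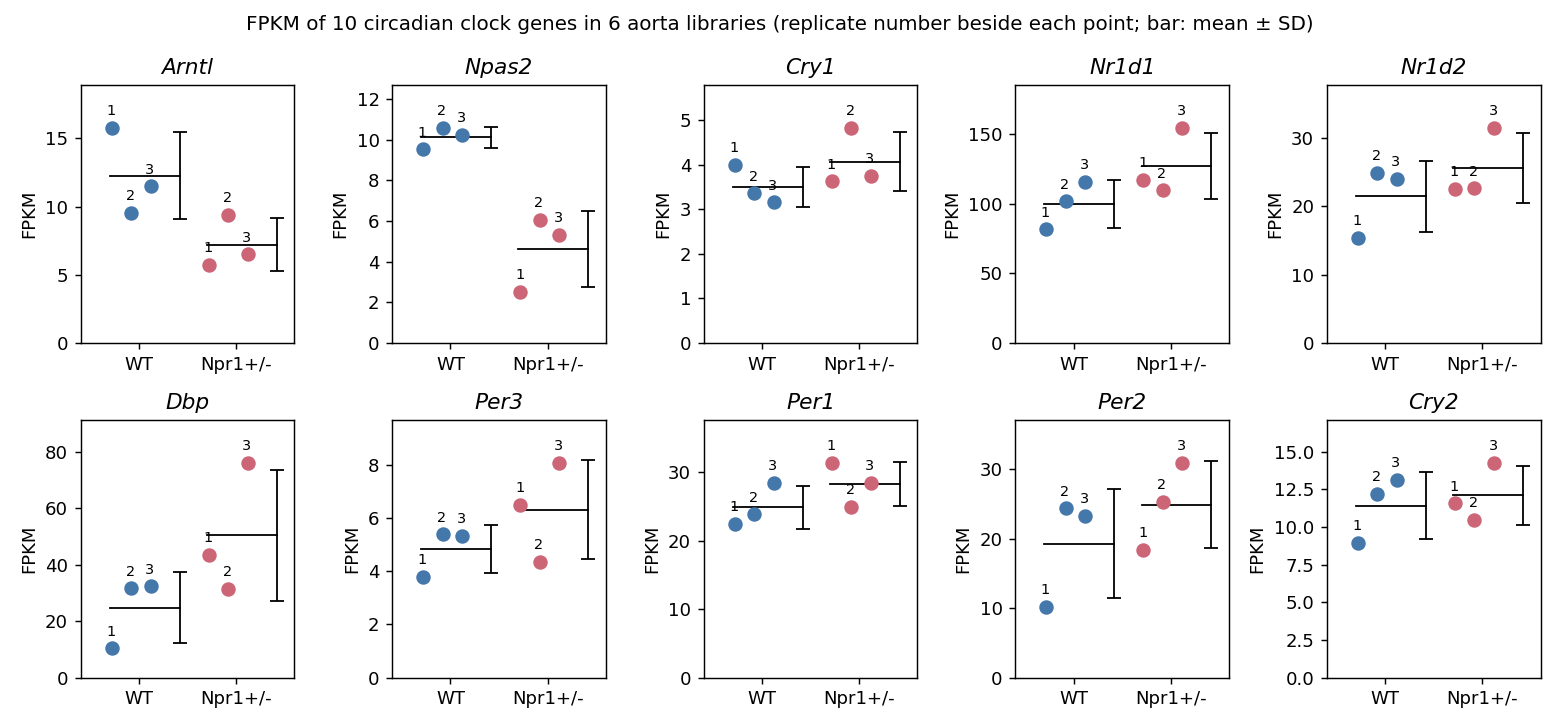
FPKM of the 10 clock genes in each of the 6 aorta libraries, with WT in blue, Npr1+/- in red, the replicate number above each point, and the horizontal line and error bar giving the mean ± SD of 3 libraries. Npas2 is at 9.51 FPKM or more in WT and at 6.04 FPKM or less in Npr1+/-, while Dbp runs from 10.4 FPKM in WT 1 to 76.2 FPKM in Npr1+/- 3.

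*Dbp* (NCBI gene 13170, chr7:45705088-45710203), a D-box activator that the ARNTL pair switches on directly, measured 10.4, 31.7 and 32.4 FPKM in WT 1, 2 and 3 and 43.5, 31.5 and 76.2 FPKM in *Npr1*+/- 1, 2 and 3. WT 1 was far below the other libraries and *Npr1*+/- 3 far above them, while *Npr1*+/- 2 lay at the level of WT 2 and WT 3, so the groups overlapped. The means were 24.8 ± 12.5 and 50.4 ± 23.1 FPKM (SD, n = 3 each). The fitted level of *Dbp* was 2.0-fold that of WT, a log2 fold change of 1.00 (SE 0.49), with an unadjusted p of 0.0843 and an adjusted p of 0.999 by edgeR. The block brought this to 1.07 (SE 0.34), with an unadjusted p of 0.0149 and an adjusted p of 0.273 by edgeR. The log2 fold change was 0.63 without WT 1, 0.61 without *Npr1*+/- 3 and 0.70 without both libraries numbered 1.

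The *Nr1d* genes encode the receptors that silence *Arntl* and *Npas2*. *Nr1d1* (NCBI gene 217166, chr11:98767932-98775333) measured 81.5, 102 and 116 FPKM in WT and 117, 110 and 154 FPKM in *Npr1*+/-. Its highest WT library, WT 3, lay above *Npr1*+/- 2, so the groups overlapped, with a log2 fold change of 0.35 (SE 0.22). *Nr1d2* (NCBI gene 353187, chr14:18204054-18239127) measured 15.4, 25 and 24.0 FPKM in WT and 22.6, 22.7 and 31.5 FPKM in *Npr1*+/-. WT 1 was the lowest library and *Npr1*+/- 3 the highest for both receptors, as they were for *Dbp*. The log2 fold change of *Nr1d2* was 0.26 (SE 0.23), and the adjusted p of edgeR was 0.999 for either receptor. Without WT 1 and without *Npr1*+/- 3 the log2 fold change was 0.22 and 0.21 for *Nr1d1*, and 0.060 and 0.10 for *Nr1d2*, which was at 0.13 without both libraries numbered 1.

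The *Per* genes encode the proteins that, with CRY, block the ARNTL pair. *Per3* (NCBI gene 18628, chr4:151003652-151044665), whose window held the D-boxes, measured 3.78, 5.38 and 5.33 FPKM in WT and 6.49, 4.36 and 8.07 FPKM in *Npr1*+/-. *Npr1*+/- 1 and 3 were above all WT libraries and *Npr1*+/- 2 was below WT 2 and WT 3. *Per1* (NCBI gene 18626, chr11:69095217-69109960), which also answers quickly to glucocorticoids and cAMP, measured 22.5, 23.9 and 28.5 FPKM in WT and 31.4, 25 and 28.5 FPKM in *Npr1*+/-. Its groups overlapped, with WT 3 and *Npr1*+/- 3 level. *Per2* (NCBI gene 18627, chr1:91415982-91459324) measured 10.2, 24.4 and 23.3 FPKM in WT and 18.4, 25.3 and 30.9 FPKM in *Npr1*+/-. The low WT value of *Per2* was again WT 1, and the other WT libraries lay within the range of *Npr1*+/-. The log2 fold changes were 0.45 for *Per3* (SE 0.27), 0.19 for *Per1* (SE 0.17) and 0.36 for *Per2* (SE 0.36), each with an adjusted p of 0.999 by edgeR. Single libraries moved them by more than 1.5 times. *Per2* was at 0.045 without WT 1 and 0.20 without *Npr1*+/- 3, *Per3* at 0.28 and 0.26 without the same libraries, and *Per1* at 0.11 without WT 1, 0.31 without WT 3 and 0.076 without *Npr1*+/- 1. Without both libraries numbered 1 they were at 0.24 for *Per3*, 0.011 for *Per1* and 0.21 for *Per2*.

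The cryptochromes differed little between the groups. *Cry1* (NCBI gene 12952, chr10:85131700-85185064) measured 3.99, 3.35 and 3.15 FPKM in WT and 3.62, 4.82 and 3.74 FPKM in *Npr1*+/-. *Cry2* (NCBI gene 12953, chr2:92403646-92434043) measured 8.93, 12.2 and 13.1 FPKM in WT and 11.6, 10.5 and 14.3 FPKM in *Npr1*+/-. Both genes overlapped between the groups, with log2 fold changes of 0.22 (SE 0.20) and 0.085 (SE 0.19) and an adjusted p of 0.999 by edgeR. The sign for *Cry2* turned to -0.071 without WT 1, to -0.028 without *Npr1*+/- 3 and to -0.059 without both libraries numbered 1. *Cry1* was at 0.14 without WT 3, 0.080 without *Npr1*+/- 2 and 0.37 without both libraries numbered 1.

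Counted over the 10 clock genes, edgeR called none, as it called none of the 13938 genes (0%), and with the block it also called none (0%). At an unadjusted edgeR p under 0.05, 2 of the 10 clock genes passed, *Arntl* and *Npas2*, against 412 of all genes tested (2.96%). With the block 5 of 10 passed, *Arntl* and *Npas2* lower and *Nr1d1*, *Dbp* and *Per2* higher, against 12.4%. DESeq2 called none of the 10 without the block, against 16 of its genes (0.0942%), and 1 with the block, against 265 (1.81%). The groups did not overlap for 2 of the 10, both lower in *Npr1*+/-, against 7.48% of all genes in either direction and 3.58% lower. All 3 same-numbered pairs moved one way for 5 of the 10, against 34.4% of all genes. The log2 fold change was positive for 8 of the 10, *Cry2* included, and negative for 2, beside 7186 of the 13938 genes positive. Its median was 0.24, beside 0.0076 over all genes tested.

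**Figure D2:**
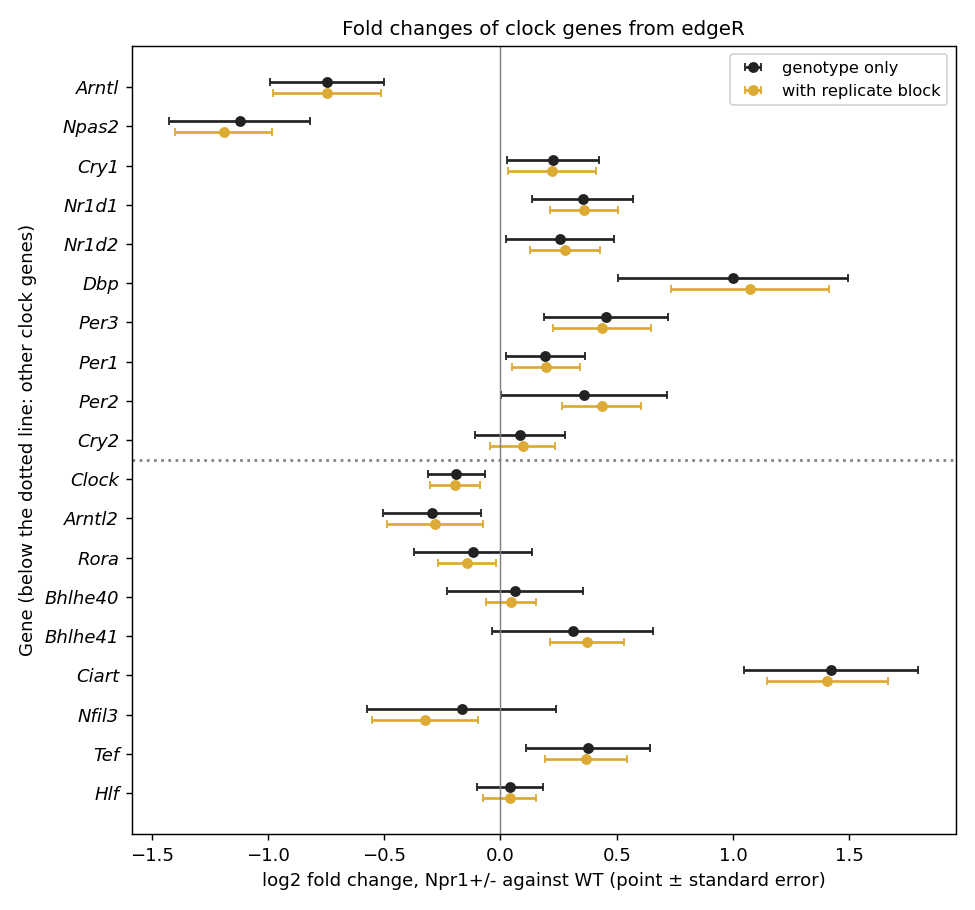
Log2 fold change of Npr1+/- against WT from edgeR for the 10 clock genes and, under the dotted line, other clock genes, with genotype only in black and with the replicate block in yellow (point ± standard error, 3 libraries each). With genotype only, Npas2 at -1.12 and Arntl at -0.75 lie to the left and Dbp at 1.00 and Ciart at 1.42 to the right. The others lie between Arntl2 at -0.30 and Per3 at 0.45.

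The median clock gene varied more between libraries than the median gene of like or higher level. The median ratio of the highest to the lowest CPM over the 6 libraries was 2.15 for the 10 clock genes and 1.5 for the 9831 genes at or above the level of the lowest of them. Much of this lay within a genotype for some genes. *Dbp* spanned 7.19-fold over all libraries, 3.30-fold within WT and 2.32-fold within *Npr1*+/-, and *Per2* spanned 2.39-fold within WT. *Npas2* spanned 4.07-fold over all libraries, 1.12-fold within WT and 2.37-fold within *Npr1*+/-.

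Genes that peak near the change from dark to light and genes that peak in the light were then set against each other within each library, to ask whether they place the libraries at different points of the cycle. The log2 ratio of *Arntl* to *Dbp* CPM was 1.42, -0.85 and -0.68 in WT 1, 2 and 3 and -2.09, -0.91 and -2.65 in *Npr1*+/- 1, 2 and 3. WT 1 therefore stood at one end, *Npr1*+/- 1 and 3 at the other, and WT 2, WT 3 and *Npr1*+/- 2 close together between them. The log2 ratio of *Arntl* to *Per3* CPM put the libraries in the same 3 places, at 0.77, -0.45 and -0.23 in WT and -1.56, -0.26 and -1.66 in *Npr1*+/-. Ratios to *Per1* and *Per2*, which peak near the change to dark, were not computed. *Per2* and *Per1* were also lowest in WT 1, at 55.7 and 105 CPM. Yet *Per2* was lower in *Npr1*+/- 1 than in WT 2 and WT 3, at 106 against 133 and 133 CPM. *Per1* was lower in *Npr1*+/- 3 than in WT 3, at 131 against 139 CPM. On the FPKM scale *Dbp* was 0.661, 3.32 and 2.81 times *Arntl* in WT and 7.58, 3.36 and 11.7 times in *Npr1*+/-. WT 1 and *Npr1*+/- 1, both high in fat and erythroid markers and low in smooth muscle markers, differed from each other in white fat, endothelial and sympathetic neuron markers, and the part of these in the ratios was not tested.

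With *Npas2* in the place of *Arntl*, the log2 ratio to *Dbp* CPM was 1.22, -0.26 and -0.35 in WT and -2.79, -1.04 and -2.49 in *Npr1*+/-. WT 1 and *Npr1*+/- 1 and 3 again stood at the ends, and *Npr1*+/- 2 lay below WT 2 and WT 3 by more than it did for *Arntl*. *Npr1*+/- 2, which lay near WT 2 and WT 3 in *Arntl* and in *Dbp*, had 6.04 FPKM of *Npas2* beside their 10.6 and 10.2 FPKM. Within same-numbered pairs, *Npas2* CPM in *Npr1*+/- was 0.274, 0.590 and 0.495 times that in WT, while *Arntl* CPM was 0.387, 0.973 and 0.557 times and *Dbp* CPM 4.42, 1.02 and 2.18 times. No hour of collection is given in the sources used here, so a difference in hour and a difference by genotype cannot be told apart in these 6 libraries.

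**Figure D3:**
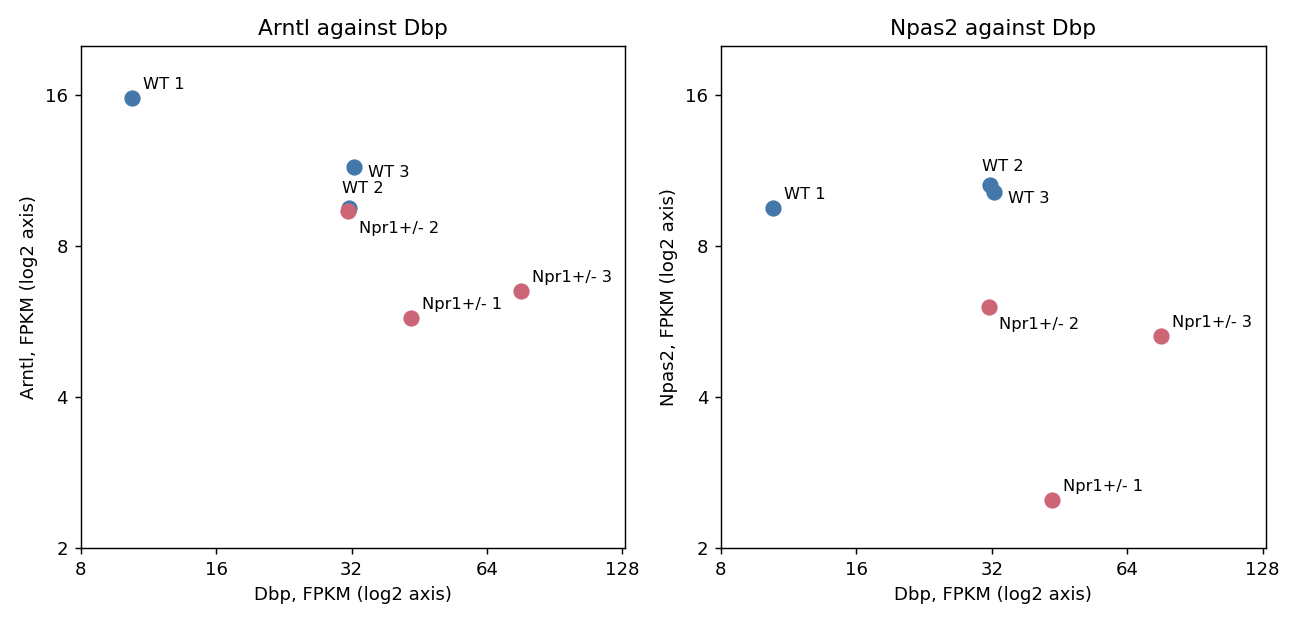
FPKM of Arntl (left) and Npas2 (right) against FPKM of Dbp in the 6 aorta libraries, both axes on a log2 scale, with WT in blue and Npr1+/- in red. Npr1+/- 2 lies beside WT 2 and WT 3 for Arntl against Dbp, at 9.38 and 31.5 FPKM, but below them for Npas2, at 6.04 FPKM.

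Across the 6 libraries the log2 CPM of the clock genes was correlated in all 45 pairs, with exact two-sided permutation p-values that cannot fall below 0.00278. Of these, 14 had an unadjusted p under 0.05 for Pearson's r and 0 after Benjamini-Hochberg adjustment of the exact p-values, where the smallest adjusted p was 0.125. For the pairs below, r is also given without the 2 libraries farthest from the median of the gene named first. These 2 libraries can differ between pairs. *Arntl* and *Dbp* ran against each other, with r = -0.87 (exact p = 0.0306, adjusted 0.134) and rho = -0.77 (exact p = 0.103, adjusted 0.308), and r was -0.88 without the 2 libraries farthest from the median of *Arntl*. *Nr1d1* and *Dbp* put the 6 libraries in the same order, with rho = 1.00 (exact p = 0.00278, adjusted 0.125) and r = 0.96 (exact p = 0.00278, adjusted 0.125), and r was 0.69 without the 2 farthest libraries. *Dbp* and *Per3* gave r = 0.94 (exact p = 0.00833, adjusted 0.125) and rho = 0.94 (exact p = 0.0167, adjusted 0.150), and r was 0.91 without the 2 farthest. For *Nr1d2* and *Dbp* the relation rested on the 2 farthest libraries, since r was 0.96 with them (exact p = 0.0417, adjusted 0.134), rho was 0.71 (exact p = 0.136, adjusted 0.322) and r was -0.31 without them. *Npas2* and *Dbp* gave r = -0.51 (exact p = 0.256, adjusted 0.363), rho = -0.54 (exact p = 0.297, adjusted 0.478) and r = -0.13 without the 2 farthest. These libraries include both genotypes, and 3 libraries of each are too few for a correlation within a genotype.

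Among the 12549 genes with a mean log2 CPM of at least 1, those whose log2 CPM ran most like *Arntl* over the 6 libraries were *Ctsf*, *Pnrc1*, *Orai3*, *Gab2* and *Cryzl1*, with Pearson's r of 0.98, 0.97, 0.95, 0.95 and 0.95. *Npas2* came at rank 86, *Clock* at rank 104, *Nfil3* at rank 888 and *Cry1* at rank 6200. Those most like *Dbp* were *Eif2ak3*, *Zdhhc12*, *Tmub1*, *Zfyve27* and *Tmem164*, with r of 0.98, 0.98, 0.98, 0.98 and 0.97. *Nr1d2* came at rank 7, *Nr1d1* at rank 10 and *Per3* at rank 23 for *Dbp*. *Cry2* came at rank 93, *Per2* at rank 96, *Per1* at rank 517 and *Cry1* at rank 9259. The genes named as most like *Arntl* or *Dbp* are the highest of 12549 values of r over 6 libraries of both genotypes. Their r is therefore high by choice and is not evidence of a link.

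Other genes of the loop were read from lists. Among the repressors and D-box factors *Bhlhe40*, *Bhlhe41*, *Ciart*, *Nfil3*, *Tef* and *Hlf*, all 6 were tested, and 1 was higher and 0 lower at an unadjusted edgeR p under 0.05, beside 262 higher and 150 lower of the 13938 genes. Their median log2 fold change was 0.19. The gene was *Ciart*, at 1.34, 1.69 and 2.29 FPKM in WT and 5.11, 3.48 and 7.76 FPKM in *Npr1*+/-. Its groups did not overlap, and *Npr1*+/- 2 again was the *Npr1*+/- library nearest to WT. Its means were 1.77 ± 0.480 and 5.45 ± 2.16 FPKM (SD, n = 3 each), and its fitted level was 2.68-fold that of WT, a log2 fold change of 1.42 (SE 0.37), with an unadjusted p of 0.00736 and an adjusted p of 0.999 by edgeR. The block gave *Ciart* an adjusted p of 0.124 by edgeR, and DESeq2 with the block one of 0.0183.

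*Tef*, a D-box activator related to *Dbp*, followed it at 27.1, 35.3 and 42.1 FPKM in WT and 45.0, 32.4 and 58.5 FPKM in *Npr1*+/-, and its groups overlapped. *Nfil3*, the repressor that competes for D-boxes, measured 33.9, 45.2 and 36.5 FPKM in WT and 21.2, 58.4 and 22.8 FPKM in *Npr1*+/-. *Npr1*+/- 1 and 3 were thus below all WT libraries for *Nfil3*, and *Npr1*+/- 2 above them.

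*Clock* measured 9.07, 9.48 and 9.09 FPKM in WT and 7.08, 8.88 and 8.28 FPKM in *Npr1*+/-. These did not overlap, with a log2 fold change of -0.19 (SE 0.12) and an adjusted p of 0.999 by edgeR. *Clock* is the other partner of ARNTL, and whether it differed from *Npas2*, whose log2 fold change was -1.12, was not tested. Of the kinases and ubiquitin ligases that act on clock proteins, 0 of 6 passed at an unadjusted edgeR p under 0.05, where 2.96% of all genes passed, and their median log2 fold change was -0.033. Of the clock outputs 0 of 8 passed, and their median was 0.24.

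**Figure D4:**
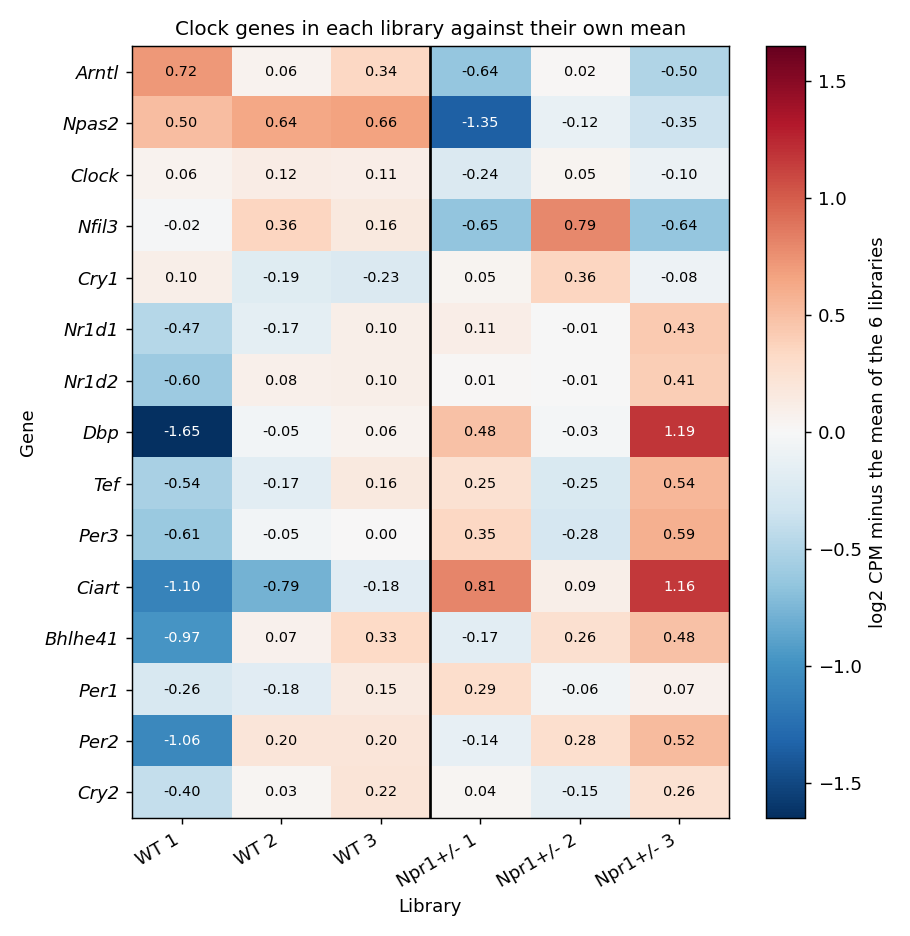
Log2 CPM of 15 clock genes in each of the 6 libraries minus the mean of the gene over the 6 libraries, with red above and blue below the mean and WT left of the black line. WT 1 is low in Dbp (-1.65) and Per2 (-1.06) and high in Arntl (0.72), Npr1+/- 3 is high in Dbp (1.19), and Npas2 is above its mean in all WT and below it in all Npr1+/- libraries.

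Some of the counts could hold reads of a neighbour, since the strand setting of the counting is not given in the sources used here. In GENCODE M21, *Dbp* shares 539 exon bases with *Sphk2* on the opposite strand, *Nr1d1* shares 263 with *Thra*, *Cry2* shares 295 with *D930015M05Rik* and *Arntl* shares 33 with *Gm45355*. *Npas2*, *Per1*, *Per2*, *Per3*, *Cry1* and *Nr1d2* share no exon base with another gene. The estimated counts were not whole numbers in 6 libraries for *Dbp*, *Nr1d1* and *Cry2*, in 3 for *Arntl* and *Per3* and in 1 for *Nr1d2*. The source of these fractions was not tested. *Sphk2* and *Thra*, read after the values of the clock genes were seen, had log2 fold changes of 0.0042 and -0.23, beside 1.00 for *Dbp* and 0.35 for *Nr1d1*.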

How the data were processed

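RNA of whole aortas was sequenced in 3 WT and 3 *Npr1*+/- libraries. The authors filtered reads with SOAPnuke, aligned them to a set of coding genes with Bowtie2 and ran RSEM. They deposited estimated counts and, for the same 18191 genes, expression values taken here as FPKM because their ratio to the counts follows gene and library size. The submitters' processing notes name mm10, Bowtie2, RSEM and DESeq2 1.4.5. The release of the gene set is not given in the sources used here. The 4 columns of the authors' means were not used.

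Estimated counts were rounded and fitted with edgeR 4.0.16 in R 4.3.3, with TMM scaling, a filter at a minimum count of 10 and the quasi-likelihood test, Benjamini-Hochberg adjusted over 13938 genes. A call needed an adjusted p under 0.05 together with a log2 fold change of 0.5 or more in size. Log2 CPM used a prior count of 2. The fit was tested on simulated data. Alternatives were DESeq2 1.42.0, its size factors, no filter, limma 3.58.1 on log2(FPKM + 0.1) and log2(FPKM + 1), the replicate block, and libraries left out. Deviations of same-numbered libraries from their genotype means correlated at 0.64, 0.39 and 0.24, all over 0.1. The replicate number was therefore used as a block in alternative fits, while the main fit held genotype only. This choice rests on the data and not on the labels. These correlations do not establish a pairing, since WT 3 with *Npr1*+/- 2 gave 0.445 and WT 2 with *Npr1*+/- 3 gave 0.371. Over the 10 clock genes the same-numbered values were -0.089, -0.59 and 0.84. Exact permutation tests used scipy 1.17.1. A depth of 13510970 to 16664343 counts sets the counting error only, not the spread between mice.

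Gene places are those of GENCODE M21 on GRCm38, and promoters those of RefSeq on GRCm38.p6. The clock genes and all lists were chosen with earlier results of these data known. The genes named are the 10 clock genes, *Npr1*, the listed genes, and the 5 genes most like *Arntl* and the 5 most like *Dbp*. The result for the list of further clock activators is not reported here.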

Additional observations from a re-analysis of the deposited data

How the results depend on the processing

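The absence of called genes held in edgeR with the size factors of DESeq2, without the filter, with limma on either FPKM scale, with the replicate block, and without each library in turn. DESeq2 called 16 genes, edgeR without both libraries numbered 1 called 1, and DESeq2 with the replicate block, added after seeing the data, called 265. Among the clock genes 0 were called under these settings, except 1, *Npas2*, under DESeq2 with the replicate block. *Cry2* changed sign, with log2 fold changes of -0.071 to 0.21 when 1 library was left out and -0.059 without both libraries numbered 1. The cause was not tested. *Npas2* kept an unadjusted p under 0.05 in every setting. The replicate block changed no call in edgeR. With 3 libraries a genotype, the exact tests cannot reach a p under 0.1, so they say nothing about stability.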

Other observations

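Glucocorticoid-responsive genes include *Per1*, so a list of others was read beside the clock. Of the 8 tested, 1 was higher and 0 lower at an unadjusted edgeR p under 0.05, and 4 were higher with the replicate block, beside 262 and 1026 higher of all 13938 genes, with a median log2 fold change of 0.37. *Tsc22d3*, a leucine zipper protein induced by glucocorticoids, measured 54.6, 37.6 and 41.2 FPKM in WT 1, 2 and 3 and 114, 51.8 and 70.4 FPKM in *Npr1*+/- 1, 2 and 3. *Fkbp5*, a co-chaperone of the glucocorticoid receptor, measured 32.9, 14.5 and 14.5 FPKM in WT and 40.0, 21.3 and 34.2 FPKM in *Npr1*+/-. Each was higher in *Npr1*+/- in all 3 same-numbered pairs while the groups overlapped. Being higher in all 3 pairs held for 4 of the 8 genes, beside 2438 of all 13938. The log2 fold change was positive for 6 of the 8 and negative for 2. It was 0.12 for *Zbtb16*, 0.065 for *Klf9*, -0.023 for *Sgk1* and -0.13 for *Cdkn1a*. The adjusted p of *Tsc22d3* and of *Fkbp5* was 0.999 by edgeR, and 0.124 for *Tsc22d3* and 0.162 for *Fkbp5* with the replicate block. DESeq2 with the replicate block, added after seeing the data, gave adjusted p of 0.000883 for *Tsc22d3* and 0.0164 for *Fkbp5*.

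Of 8 temperature-responsive genes, 0 were higher and 1 lower at an unadjusted edgeR p under 0.05, beside 262 higher and 150 lower of all 13938 genes. With the replicate block 2 were higher and 1 lower, beside 1026 and 709. The lower gene was *Cirbp*, a cold-induced RNA-binding protein, at 32.1, 38.3 and 37.1 FPKM in WT and 19.5, 26.5 and 33.5 FPKM in *Npr1*+/-. *Hspa1a*, a heat shock chaperone, ranged from 33.4 FPKM in WT 1 to 579 FPKM in *Npr1*+/- 2, with overlapping groups.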
